A study of Homo sapiens with 30 samples.

Results

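The BTB-domain receptors of the cullin-3 ubiquitin ligase were followed at the RNA level in A375 melanoma cells exposed to MLN4924. Members were all genes with a KLHL, KBTBD or BTBD symbol followed by a number, read from probe sets annotated to 1 gene. KEAP1, antisense genes and pseudogenes were not included. This gave 54 genes (34 KLHL, 8 KBTBD and 12 BTBD) of 19775 genes measured, read by 118 of 54675 probe sets, and 22 of the genes had a single probe set. All 54 matched a protein-coding RefSeq gene by identifier.

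KLHL and KBTBD proteins carry a BTB domain that binds cullin-3 and Kelch repeats that bind a substrate, so that each receptor brings its own substrates to the shared ligase. The ligase becomes active when the ubiquitin-like protein NEDD8 is attached to the cullin, and MLN4924 (pevonedistat) inhibits the NEDD8-activating enzyme that starts this attachment. BTBD proteins share the BTB domain but carry no Kelch repeats, and several of them are known for roles other than substrate delivery.

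A375 is an established human melanoma line with an activating BRAF mutation, and the study used this 1 line. Cells received 650 nM MLN4924 or 0.065% DMSO, the vehicle, and were collected after 1, 2, 4, 8 or 24 h. The 10 groups were MLN4924 and DMSO at each of the 5 times, with 3 Affymetrix HG-U133 Plus 2.0 arrays each, 30 in all. The labels do not say whether the 3 arrays of a group came from separate cultures, so the p-values cover only how these samples scatter, and that scatter may be technical. Signals below are quantile-normalized array units, which cannot be set against each other between genes, and changes are differences of log2(signal + 32), MLN4924 minus DMSO, which understate the change of dim genes. A gene is said to have risen or fallen where limma, fitted over all genes, gave an adjusted p under 0.05.

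The deposited array medians ran between 32.6 and 44.0, and arrays correlated at 0.9833 to 0.9898 within groups. SOX10 and MITF, which define the melanocyte lineage, were above the median of all values (36.6) on all 30 arrays. The pigment genes differed: TYR was above it on 25 arrays, PMEL on 3, and MLANA and TYRP1 on 0. The summed signal of 9 melanocyte markers was 1360.5 to 1494 with MLN4924 at 24 h, against 6000.5 to 6442 with DMSO. Of the 9 genes 4 fell and 5 were not called, and 3 carried most of the drop: ERBB3 averaged 371.7 with MLN4924 and 3610.3 with DMSO, S100B 61.4 and 980.9, and SOX10 395.7 and 873. MITF, at 350.1 and 365, was not called. Summed epithelial markers, 6 genes led by KRT18, ran the other way, with 4750 to 5026 under MLN4924 and 2140 to 2262 under DMSO. KRT18 made up most of both sums, at 4672 and 2031 on average. KRT18 and KRT8 rose, and the other 4 epithelial markers were not called. EPCAM, CDH1 and KRT19 (epithelial), PTPRC and VWF (blood and endothelium) and COL3A1 (fibroblasts) were above the median on 0 arrays. Others on these lists were above it: COL1A1, DCN, HBB, PECAM1, KRT8 and KRT18 on all 30 arrays, LUM on 28, KRT5 on 24 and CD3E on 21. COL1A2 was above it on 7, PDGFRB on 4 and CDH5 on 2. The sums of 6 fibroblast markers were 266.5 to 308 with MLN4924 and 399 to 452 with DMSO at 24 h, and those of 6 blood and endothelial markers were 272 to 357 and 319.9 to 354. The ratio of 3' to 5' signal of ACTB, a measure of RNA integrity, was 1.28 to 1.43 with MLN4924 at 8 h, against 1.14 to 1.31 with DMSO, and 1.26 to 1.33 against 1.24 to 1.35 at 24 h. At 2 h it was 1.25 to 1.36 with MLN4924 and 1.26 to 1.74 with DMSO. The part of these marker and RNA shifts in the receptor results was not tested, and in bulk RNA fewer cells of a type and less RNA per cell cannot be told apart.

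Calls among receptor genes came mainly at 8 and 24 h and in both directions, at shares that at 24 h were near those of all genes. At 1 h and at 2 h limma called 0 of 54 members, where 0.00506% and 0.551% of all genes were called, and 3 and 6 members had an unadjusted p under 0.05. At 4 h 4 members (7.41%) were called, against 3.39% of all genes. Of these 1 was higher and 3 were lower, beside 1.83% and 1.57% of all genes. At 8 h the count was 13 (24.1%), against 15.2% of all genes, with 7 higher and 6 lower, beside 8.37% and 6.81%. By 24 h the count was 21 (38.9%), against 34.0% of all genes, with 12 higher and 9 lower, beside 15.9% and 18.1%. An F test over the 5 effects called 22 members (40.7%), against 32.6% of all genes. The difference between members and all genes was not tested.

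In 44 members at least 1 group averaged over the median signal of 36.6, and in 10 none did. This level includes the MLN4924 groups, so a gene can pass it through its own rise: KLHL14 averaged 41.1 with MLN4924 at 24 h and 30.4 or less in every other group. The split at 8 h depended on the scaling of the arrays: after median centring of every array it was 11 higher and 4 lower, and with signals as deposited 6 higher and 8 lower. The median 8 h change of all genes moved as well, to 0.08 with median centring and -0.03 as deposited, from 0.004 after quantile normalization. The part of this shift in the member split was not tested. Arrays with MLN4924 and with DMSO did not overlap for 6, 2, 17, 20 and 26 members at 1, 2, 4, 8 and 24 h. As shares of the 54 these were 11.1%, 3.70%, 31.5%, 37.0% and 48.1%, beside 9.94%, 12.2%, 20.7%, 28.0% and 44.6% of all genes. The member medians of the log2 change stayed between -0.022 and 0.008 at the 5 times, beside -0.014 to 0.004 for all genes.

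**Figure D1:**
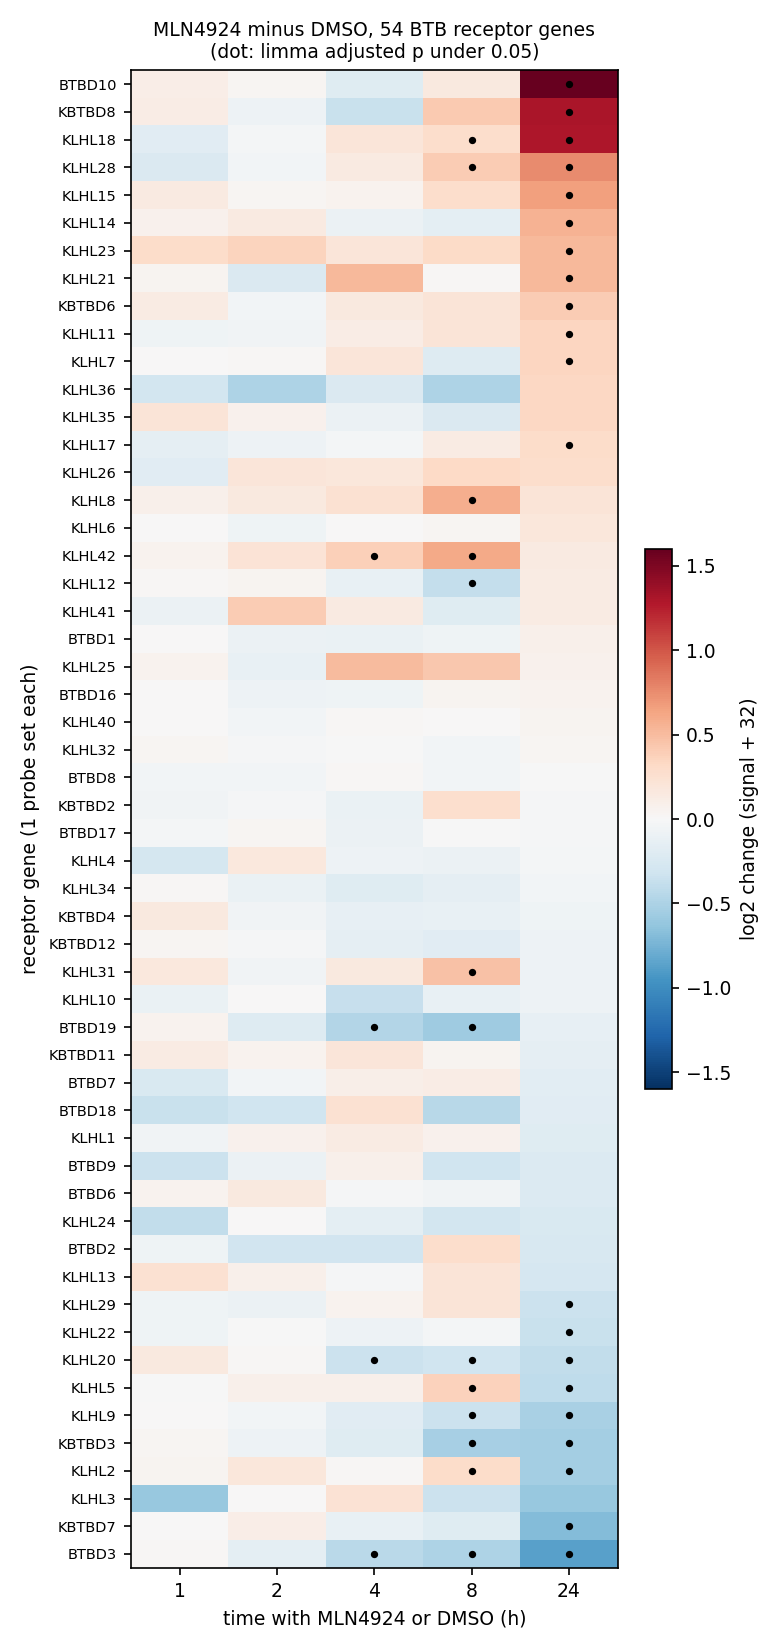
Log2 change of each of the 54 receptor genes (rows, ordered by the 24 h change) at 1, 2, 4, 8 and 24 h (columns), MLN4924 minus DMSO, 3 arrays a group. Red is higher and blue lower with MLN4924, dots mark a limma adjusted p under 0.05, and the dots gather at 8 h (13) and 24 h (21), with 3 genes, BTBD10, KBTBD8 and KLHL18, past a 2-fold change.

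Receptors of mitotic kinases changed in both directions. KLHL18, which directs ubiquitylation of Aurora A, read 504.8, 516 and 511 with MLN4924 at 24 h, against 203, 199 and 171 with DMSO. The 3 treated arrays lay far above the 3 controls and within a narrow range of each other. The change was 1.29 ± 0.09 (SE, limma adjusted p = 3.1e-11). At 8 h it was already above DMSO, at 320.6, 321 and 319.9 against 297, 251 and 231, a rise of 0.28 ± 0.09 (adjusted p = 0.0385). The value depended on the probe set: of its other probe sets 1 rose by 0.47 ± 0.11 and 1 changed by -0.02 ± 0.16, and the mean over the 3 gave 0.58 ± 0.07 (adjusted p = 6.92e-07). The 250 bases before the start of KLHL18 in RefSeq (GRCh38.p14, chr3:47282694-47282943, plus strand) are shown because this gene had the largest rise of a receptor with a known mitotic substrate. Capitals mark a match to TGACNNNGC, the core of the antioxidant response element bound by NRF2, read on the minus strand.
KLHL18: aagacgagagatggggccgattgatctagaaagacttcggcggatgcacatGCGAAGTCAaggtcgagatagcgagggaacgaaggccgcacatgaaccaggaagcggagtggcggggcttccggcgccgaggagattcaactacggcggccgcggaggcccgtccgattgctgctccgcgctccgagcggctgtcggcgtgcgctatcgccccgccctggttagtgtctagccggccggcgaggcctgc

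KLHL21, which takes Aurora B to the midzone of the dividing cell, was also higher at 24 h. Its arrays read 295, 276 and 301 with MLN4924, against 202.5, 173 and 206 with DMSO, with no overlap. The rise was 0.52 ± 0.15 (adjusted p = 0.00973), and without the second DMSO array it was 0.45 ± 0.17 (adjusted p = 0.0515). An equal 0.52 ± 0.15 at 4 h missed the threshold (adjusted p = 0.0695), with means of 345 ± 33.6 in MLN4924 and 232 ± 28.3 in DMSO (SD, n = 3 each). Its upstream region (chr1:6602870-6603119, minus strand) also holds the TGACNNNGC letters, on the plus strand of the gene.
KLHL21: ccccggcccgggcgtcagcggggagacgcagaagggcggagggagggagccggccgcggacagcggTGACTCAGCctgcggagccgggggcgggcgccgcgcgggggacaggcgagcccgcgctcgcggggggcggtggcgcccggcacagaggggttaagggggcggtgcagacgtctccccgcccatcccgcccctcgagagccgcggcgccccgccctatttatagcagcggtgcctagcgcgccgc

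KLHL9, a partner of KLHL13 in removing Aurora B from chromosomes, went the other way. At 24 h it read 683, 746 and 697.5 with MLN4924, against 1067, 1018 and 1006 with DMSO, and the groups were well apart. It fell by 0.52 ± 0.06 (adjusted p = 1.44e-07). The call was also made at 8 h, where 799.9, 719 and 775 stood against 958, 966 and 1000.5, a change of -0.34 ± 0.06 (adjusted p = 0.000256). With median centring the 8 h change was -0.16 (adjusted p = 0.0841), and without probe sets that can match several transcripts, of which its main one is an example, the 24 h change was -0.31. KLHL13 was not called at 24 h (-0.27 ± 0.14, adjusted p = 0.141), although its arrays did not overlap.

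KLHL22, the receptor that takes PLK1 off kinetochores, read 49.3, 57.7 and 37.6 with MLN4924 at 24 h, against 71.7, 70.6 and 69.7 with DMSO. It is close to background, and its arrays did not overlap. The change was -0.36 ± 0.12 (adjusted p = 0.0165), and without the third MLN4924 array it was -0.27 (adjusted p = 0.12). KLHL42, which ubiquitylates the microtubule-severing enzyme katanin, was the one member higher at 4 h. It read 749.5, 815 and 842.5 with MLN4924 at 4 h, against 612, 619.5 and 595 with DMSO. At 8 h the arrays read 855, 854 and 946.5 against 571, 582 and 547, and neither comparison showed overlap. The rises were 0.38 ± 0.07 at 4 h (adjusted p = 0.00109) and 0.61 ± 0.07 at 8 h (adjusted p = 4.95e-07). At 24 h the groups overlapped, with 664, 573 and 521 against 533, 530.4 and 510.5 (0.14 ± 0.07, adjusted p = 0.115). With only the 6 arrays of 4 h in the fit the 4 h rise missed the threshold (adjusted p = 0.0642).

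**Figure D2:**
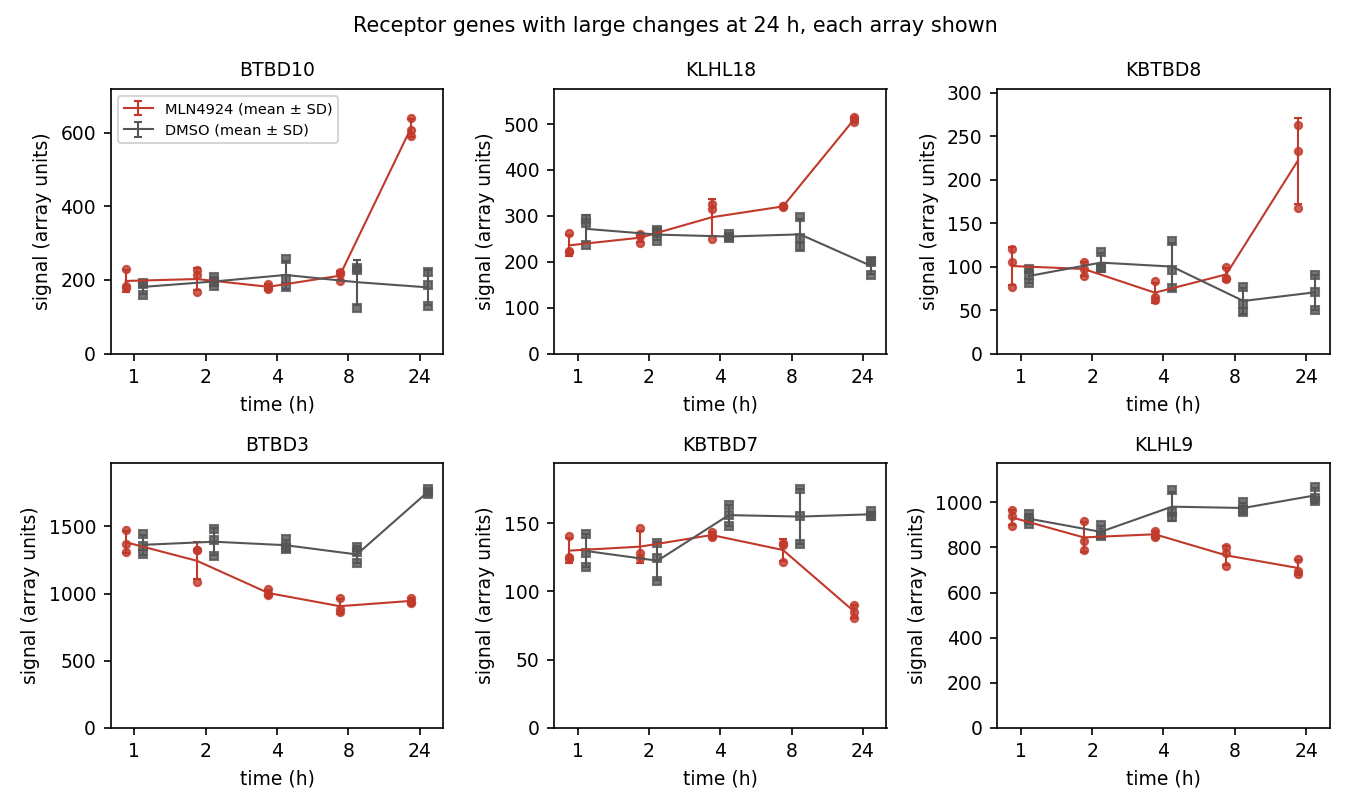
Normalized signal of 6 receptor genes at each time on each array, MLN4924 (red circles, left) beside DMSO (grey squares, right), with lines through group means and bars of SD (n = 3). BTBD10, KLHL18 and KBTBD8 stand above DMSO at 24 h, and BTBD3, KBTBD7 and KLHL9 below it.

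KBTBD8 had the largest change among KBTBD genes. It marks the ribosome-biogenesis regulators NOLC1 and TCOF1 with a single ubiquitin during neural crest specification. At 24 h its arrays read 263, 233 and 167 with MLN4924, against 90.8, 49.8 and 70.7 with DMSO. All treated arrays were above all controls, although they spread widely (221 ± 49.3 and 70.4 ± 20.5, SD, n = 3 each). The rise was 1.31 ± 0.16 (adjusted p = 4.52e-07). At 8 h 86.2, 99.9 and 87.1 stood against 48.1, 76.4 and 57.1 without overlap, and the change of 0.42 ± 0.16 was not called (adjusted p = 0.0885). At 4 h the sign was the opposite and not called (-0.36 ± 0.16, adjusted p = 0.328).

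KBTBD6 and KBTBD7 are neighbours on chromosome 13 (chr13:41127569-41132802 and chr13:41189834-41194569 in GRCh38.p14, 57031 bases apart) and act together on TIAM1, an activator of RAC1, bound to GABARAP. They moved in opposite directions at 24 h. KBTBD6 read 481, 495 and 465 with MLN4924, against 360.5, 353.5 and 349.6 with DMSO, and the groups did not overlap. It rose by 0.41 ± 0.09 (adjusted p = 0.000795), and its second probe set rose by 0.65 ± 0.15 (adjusted p = 0.00182 over all probe sets). KBTBD7 read 80.7, 90.1 and 84.8 with MLN4924, against 159, 155 and 155 with DMSO, in tight and separate groups. It fell by 0.69 ± 0.08 (adjusted p = 1.19e-07), and its other probe sets fell by 0.83 ± 0.17 and 0.57 ± 0.11. At 8 h neither gene was called (0.21 ± 0.09 for KBTBD6, adjusted p = 0.126, and -0.20 ± 0.08 for KBTBD7, adjusted p = 0.0973). The difference between the genes themselves was not tested.

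KBTBD3 was lower at both late times. It read 33.6, 52.3 and 50.7 with MLN4924 at 8 h, against 70.4, 85.2 and 83.0 with DMSO, and 57.8, 71.8 and 59.2 at 24 h, against 108, 94.5 and 118. Neither time showed overlap. The changes were -0.53 ± 0.12 at 8 h (adjusted p = 0.00326) and -0.55 ± 0.12 at 24 h (adjusted p = 0.000798), and both kept their call under all 14 other settings tried. KBTBD2, which turns over the p85 subunit of PI3-kinase, was not called on its main probe set at 24 h (-0.02 ± 0.10, adjusted p = 0.912). At 8 h that probe set was higher without overlap, but not called (0.27 ± 0.10, adjusted p = 0.0906). A second KBTBD2 probe set was lower at 8 h (-0.51 ± 0.14) and at 24 h (-0.54 ± 0.14, adjusted p = 0.00425 over all probe sets). KBTBD4, which acts on the LSD1 and CoREST complex, was not called at any time (-0.07 ± 0.15 at 24 h, adjusted p = 0.795). KBTBD12 was not called either (-0.08 ± 0.09).

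KLHL2 and KLHL5 were higher at 8 h and lower at 24 h. KLHL2, which with KLHL3 degrades the WNK kinases of salt transport, read 288, 293 and 292 with MLN4924 at 8 h, against 229.7, 260.1 and 208 with DMSO. At 24 h the order was turned, with 175.5, 178.5 and 157 against 274, 255 and 263, and neither time showed overlap. The changes were 0.29 ± 0.07 (adjusted p = 0.00445) and -0.55 ± 0.07 (adjusted p = 5.88e-07). With only the 6 arrays of 8 h in the fit the first missed the threshold (adjusted p = 0.109). KLHL3 was dim and not called at 24 h, at 21.5, 12.6 and 39.4 against 42.4, 55.0 and 61.9 (-0.61 ± 0.27, adjusted p = 0.0822).

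KLHL5 read 687, 643 and 671 with MLN4924 at 8 h, against 473, 534 and 525 with DMSO. The 24 h arrays read 464.5, 493.5 and 441 against 636, 639 and 617, and the groups were apart at both times. The changes were 0.37 ± 0.06 (adjusted p = 0.000188) and -0.41 ± 0.06 (adjusted p = 9.6e-06). The mean over its 5 probe sets gave -0.19 at 24 h (adjusted p = 0.103).

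KLHL12, which ubiquitylates SEC31A to enlarge the coats of secretory vesicles, was lower at 8 h. It read 408, 454 and 419 with MLN4924, against 557, 565 and 568 with DMSO, a gap larger than the range of either group. The change was -0.38 ± 0.05 (adjusted p = 9.85e-06), and -0.23 after median centring. The 24 h values were 650.5, 679 and 679.8 against 610.1, 625 and 597, now above DMSO without overlap but not called (0.13 ± 0.05, adjusted p = 0.0614).

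**Figure D3:**
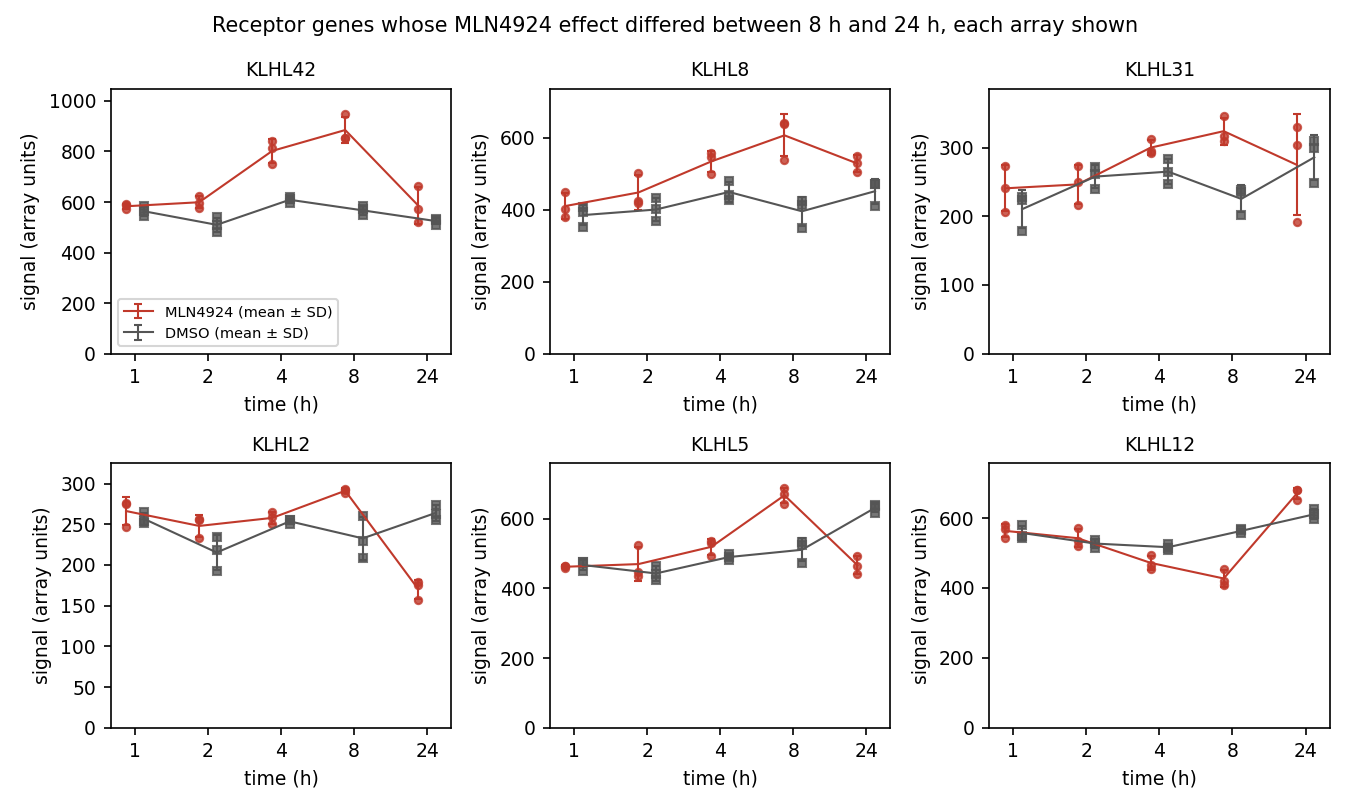
Normalized signal of 6 receptor genes whose MLN4924 effect at 24 h differed from that at 8 h, on each array, MLN4924 (red circles, left) beside DMSO (grey squares, right), with group means and SD (n = 3). KLHL2 and KLHL5 cross below DMSO between 8 and 24 h, KLHL12 crosses above it, and KLHL42, KLHL8 and KLHL31 come closer to it.

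KLHL20, the receptor of the death kinase DAPK1, of PML and of the autophagy kinase ULK1, was lower at 3 times on its main probe set. At 24 h it read 555, 571 and 552 with MLN4924, against 802, 774 and 678 with DMSO. At 8 h it read 559, 463 and 535 against 601, 742 and 624, and at 4 h 500.4, 497 and 519 against 674, 642 and 624. No time showed overlap. The changes were -0.34 ± 0.09 at 4 h (adjusted p = 0.0448), -0.32 ± 0.09 at 8 h (adjusted p = 0.0202) and -0.40 ± 0.09 at 24 h (adjusted p = 0.00117). The 4 h call was lost under 12 of 14 other settings, among them median centring (adjusted p = 0.0906), signals as deposited (adjusted p = 0.0502) and the removal of any 1 of the 6 arrays (adjusted p 0.0825 to 0.165). The 8 h call was lost under 4 of 14: after median centring (-0.16, adjusted p = 0.2), with only the 6 arrays in the fit (adjusted p = 0.151), and without the second DMSO array (-0.23, adjusted p = 0.14) or the second MLN4924 array (-0.24, adjusted p = 0.133). At 24 h the mean over its 4 probe sets was 0.11 (adjusted p = 0.24), of the opposite sign.

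KLHL15, which degrades a regulatory subunit of the phosphatase PP2A, was higher at 24 h. It read 356, 333 and 317 with MLN4924, against 237, 181 and 192.5 with DMSO, without overlap. The rise was 0.65 ± 0.12 (adjusted p = 0.000114). The mean was 335 ± 19.9 in MLN4924 and 203.5 ± 29.9 in DMSO at 24 h, and 356 ± 39.5 and 319 ± 12.6 at 1 h (SD, n = 3 each). KLHL7, mutated in a form of retinitis pigmentosa, read 486, 499 and 515 with MLN4924 at 24 h, against 412, 361 and 390 with DMSO. Its groups did not overlap, and the rise was 0.34 ± 0.08 (adjusted p = 0.000975). Its 3 probe sets did not all go one way, and their mean was -0.08 (adjusted p = 0.277).

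KLHL28 rose at both late times. It read 361, 381 and 326 with MLN4924 at 24 h, against 196, 194 and 208 with DMSO, and 175, 207 and 219 at 8 h, against 128, 154 and 146. The groups were apart at both times. The rises were 0.75 ± 0.10 at 24 h (adjusted p = 6.75e-07) and 0.41 ± 0.10 at 8 h (adjusted p = 0.00372). The mean over its 3 probe sets gave 0.56 at 24 h (adjusted p = 1.08e-06) and 0.16 at 8 h (adjusted p = 0.168). The 8 h call was also lost with only the 6 arrays of that time in the fit (adjusted p = 0.0661).

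KLHL8 and KLHL31 rose at 8 h. KLHL8, whose worm homologue acts in the turnover of a glutamate receptor, read 641, 539 and 639 with MLN4924, against 349, 425 and 413 with DMSO. KLHL31, best known from skeletal muscle, read 346, 309.5 and 317 against 203, 236 and 238. Neither overlapped with DMSO. The rises were 0.58 ± 0.09 for KLHL8 (adjusted p = 6.23e-05) and 0.47 ± 0.13 for KLHL31 (adjusted p = 0.0159). KLHL31 lost its call without the first DMSO array (0.40, adjusted p = 0.0816) or the first MLN4924 array (0.43, adjusted p = 0.0682). At 24 h the values were 0.21 ± 0.09 for KLHL8 (adjusted p = 0.0751) and -0.08 ± 0.13 for KLHL31 (adjusted p = 0.746).

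Of the other KLHL genes called at 24 h, KLHL23 and KLHL14 were close to background. KLHL23 read 69.8, 58.6 and 55.8 with MLN4924, against 35.8, 27.6 and 36.5 with DMSO (0.52 ± 0.17, adjusted p = 0.0176), without overlap. Its call was lost without the second DMSO array (0.45, adjusted p = 0.0751) or the first MLN4924 array (0.45, adjusted p = 0.0734). KLHL14 read 50.8, 32.5 and 40.1 against 17.4, 4.99 and 34.0, with overlap. Its 0.56 ± 0.21 (adjusted p = 0.0426) was lost under 8 of 14 other settings, 4 of them the removal of a single array. It was 0.35 without the second DMSO array (adjusted p = 0.268), and was 0.21 as the mean over its probe sets. KLHL29 read 124, 135 and 131 against 188, 184 and 154 (-0.35 ± 0.09, adjusted p = 0.00356), without overlap, and the mean over its 4 probe sets was -0.05 (adjusted p = 0.772). Another 2 genes rose: KLHL11, an autoantigen of a paraneoplastic syndrome, at 1143, 1118 and 1185 against 840.5, 922 and 947 (0.34 ± 0.09), and KLHL17, an actin-binding protein known from rat neurons, at 78.2, 95.1 and 92.1 against 69.6, 57.0 and 74.3 (0.29 ± 0.10).

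BTBD10, known as a binding partner and activator of AKT kinases, had the largest change of all 54 members. At 24 h it read 592, 607 and 639 with MLN4924, against 129, 222.5 and 187 with DMSO. Every treated array was more than 2-fold above every control. The change was 1.63 ± 0.17 (adjusted p = 1.86e-08), a fold of 3.10 on this scale. At 8 h the groups overlapped, at 215, 197 and 222 against 228, 231 and 123 (0.15 ± 0.17, adjusted p = 0.668). The array has 1 probe set for it. The bases before the first of its 2 RefSeq starts (chr11:13463223-13463472, minus strand) are 70.4% G and C and hold none of the 6 motifs searched.
BTBD10: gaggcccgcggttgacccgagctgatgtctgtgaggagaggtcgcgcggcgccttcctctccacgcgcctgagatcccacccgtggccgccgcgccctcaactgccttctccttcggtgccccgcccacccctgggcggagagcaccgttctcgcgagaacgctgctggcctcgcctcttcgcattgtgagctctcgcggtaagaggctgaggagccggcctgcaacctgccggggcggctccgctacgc

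BTBD3, known for orienting dendrites toward active axons in the mouse, was lower from 4 h on and had the largest fall among the probe sets chosen for the genes. It read 994, 987 and 1030.5 with MLN4924 at 4 h, against 1343, 1332 and 1406 with DMSO, and 866, 882 and 969.8 at 8 h, against 1343.5, 1224 and 1306. By 24 h the arrays read 967, 937 and 931, against 1778, 1745 and 1754. The groups were apart at all 3 times, and the MLN4924 level changed little after 4 h while the DMSO level was higher at 24 h. The changes were -0.43 ± 0.07 (adjusted p = 0.000505), -0.50 ± 0.07 (adjusted p = 2.08e-05) and -0.87 ± 0.07 (adjusted p = 4.45e-10). After median centring the 8 h value was -0.31. The region before 1 of its 4 RefSeq starts (chr20:11890567-11890816, plus strand) holds the TGACNNNGC letters shown in capitals. This start was shown because it holds them, and not all 4 starts do.
BTBD3: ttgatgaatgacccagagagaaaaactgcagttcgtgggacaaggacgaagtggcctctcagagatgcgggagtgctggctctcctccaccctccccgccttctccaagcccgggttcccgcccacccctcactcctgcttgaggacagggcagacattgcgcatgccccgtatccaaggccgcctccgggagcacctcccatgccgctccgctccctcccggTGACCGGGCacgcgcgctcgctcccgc

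BTBD19 was lower at 4 and 8 h. It read 64.1, 52.0 and 46.4 with MLN4924 at 4 h, against 87.3, 89.7 and 83.5 with DMSO, and 51.6, 57.9 and 42.8 at 8 h, against 94.5, 91.2 and 87.1. Neither time showed overlap. The changes were -0.47 ± 0.09 (adjusted p = 0.00305) and -0.57 ± 0.09 (adjusted p = 8.51e-05). The mean over its 2 probe sets gave -0.19 at 4 h, which was not called (adjusted p = 0.462), and the 4 h call was also lost with only the 6 arrays in the fit (adjusted p = 0.0724). At 24 h the groups overlapped, at 133.3, 111 and 115 against 143, 124 and 135 (-0.13 ± 0.09, adjusted p = 0.316).

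The other 9 BTBD genes were not called at any time. BTBD1, which with BTBD2 binds topoisomerase I, read 1481, 1433 and 1310.3 with MLN4924 at 24 h, against 1359, 1402 and 1239.5 with DMSO. These overlap, and the change was 0.08 ± 0.07 (adjusted p = 0.438). BTBD9, linked to restless legs syndrome, changed by -0.22 ± 0.15 and BTBD7, which acts in epithelial branching in the mouse, by -0.17 ± 0.13. BTBD6 changed by -0.22 ± 0.12 (adjusted p = 0.184).

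KLHL25 and KLHL36 varied widely between arrays of a group. KLHL25, which targets ATP citrate lyase, read 46.5, 6.19 and 61.2 with MLN4924 at 24 h, against 20, 35.3 and 37.4 with DMSO. The treated arrays spanned the controls on both sides. KLHL36 read 656, 549 and 297 against 501, 482 and 211 (0.33 ± 0.30, adjusted p = 0.47). The 10 dim genes included the tissue-restricted KLHL1 (brain), KLHL6 (B cells), KLHL10 (testis) and KLHL40 (muscle). Their arrays spanned 0.193 to 41.2 in all, and none of the 10 was called at any time.

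The effect at 24 h differed from that at 8 h in 14 members (25.9%), against 19.5% of all genes. The difference was positive in 6 and negative in 8, beside 8.21% and 11.2% of all genes. The differences between 4 and 2 h and between 8 and 4 h gave 0 calls among members, with 0.491% and 1.57% of all genes called and 4 and 9 members at an unadjusted p under 0.05. The late differences were positive for BTBD10 (1.48 ± 0.24), KLHL18 (1.01 ± 0.13), KBTBD8 (0.88 ± 0.23), KLHL7 (0.55 ± 0.11), KLHL12 (0.50 ± 0.07) and BTBD19 (0.44 ± 0.13). They were negative for KLHL2 (-0.84 ± 0.10), KLHL5 (-0.78 ± 0.09), KLHL29, KLHL31, KBTBD7, KLHL42, BTBD3 and KLHL8. Across the 26 members called at 4, 8 or 24 h, 2 were higher at both late times (KLHL18 and KLHL28). Lower at both were 4: BTBD3, KBTBD3, KLHL9 and, on its main probe set, KLHL20. Another 2 changed from higher to lower, 5 were called at 8 h and not at 24 h, and 13 at 24 h and not at 8 h. No count of these patterns over all genes is given, so they cannot be read as particular to receptors.

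Some receptors also differed over time in the vehicle. DMSO cells at 24 h differed from DMSO cells at 1 h in 11 members (20.4%), against 18.4% of all genes. Of these 9 were higher and 2 lower at 24 h, beside 9.91% and 8.47%. The count was 7 without the first DMSO array of 1 h and 7 without the first of 24 h. KLHL28 read 196, 194 and 208 at 24 h, against 115, 121 and 97.5 at 1 h, a rise of 0.69 ± 0.10 (adjusted p = 8.51e-06). BTBD19 rose by 0.63 ± 0.09, KLHL20 by 0.45 ± 0.09, KLHL13 by 0.43 ± 0.14, KLHL5 by 0.41 ± 0.06 and BTBD3 by 0.36 ± 0.07. KBTBD3, KLHL31 and KBTBD7 rose as well, by 0.37, 0.39 and 0.22. KLHL15 fell by 0.58 ± 0.12 (adjusted p = 0.001) and KLHL18 by 0.44 ± 0.09 (adjusted p = 9e-04). This comparison and that of MLN4924 with DMSO at 24 h share the 3 DMSO arrays of 24 h, so their values are not independent. Side by side, MLN4924 minus DMSO and DMSO 24 h minus 1 h, they were -0.87 and 0.36 for BTBD3, -0.41 and 0.41 for KLHL5, 0.75 and 0.69 for KLHL28, and 1.29 and -0.44 for KLHL18.

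All 118 probe sets were also fitted separately. At 24 h 35 of the 118 were called, 19 higher and 16 lower, against 24.8% of all probe sets. At 8 h 19 of the 118 were called, 10 higher and 9 lower, against 9.74%. All probe sets include those annotated to no gene or to several, while the 118 had 1 symbol each, so the sets are unlike. At 24 h 3 genes had probe sets called in both directions. For KLHL7 these were 0.34 ± 0.08 and -0.73 ± 0.10, for KLHL20 -0.40 ± 0.09 and 0.73 ± 0.14, and for KLHL29 -0.35 ± 0.09 and 0.69 ± 0.19. The direction of these 3 genes therefore holds for the probe set named and not for the gene as a whole. KLHL24, the receptor of keratin 14, was not called on its main probe set (-0.24 ± 0.23, adjusted p = 0.501) but fell on 2 others, by 0.91 ± 0.14 and 0.31 ± 0.10. KLHL8 rose at 24 h on its second probe set (0.42 ± 0.07), and KLHL42 on both of its others (0.36 ± 0.10 and 0.43 ± 0.13). The transcripts that each probe set reads were not analysed here.

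**Figure D4:**
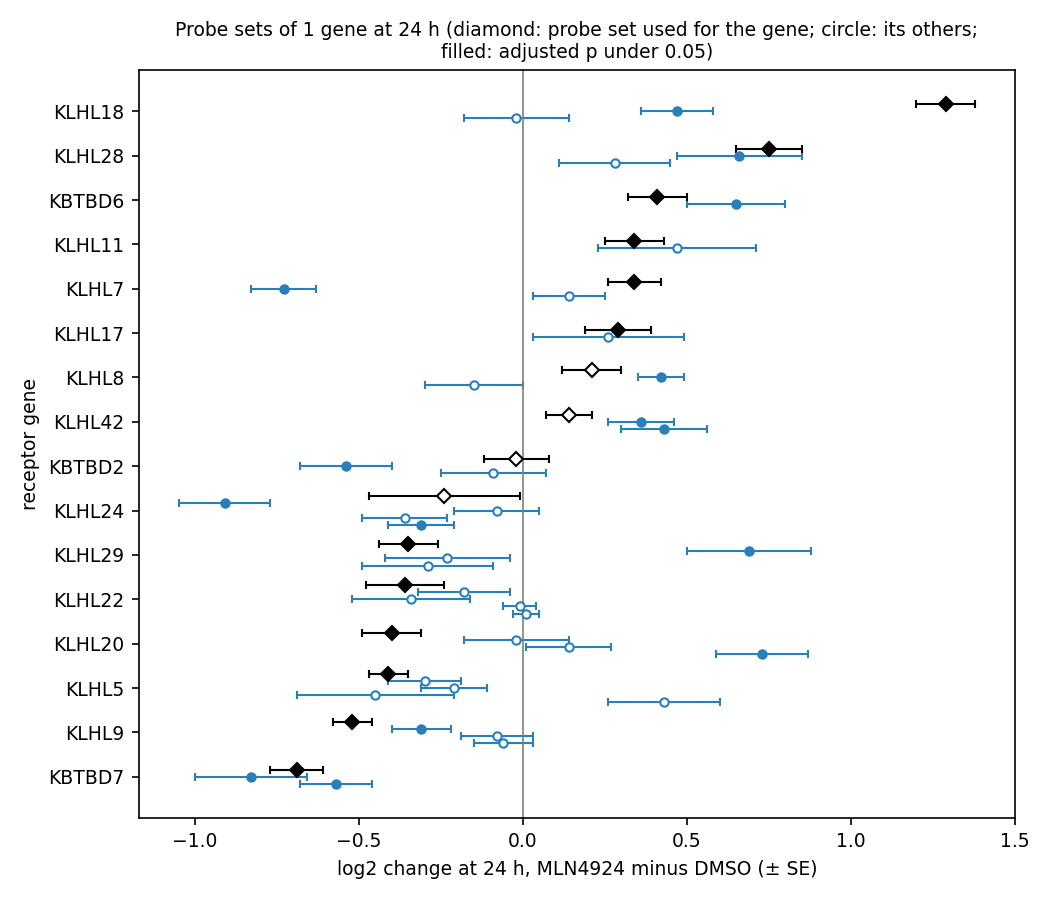
Log2 change at 24 h, MLN4924 minus DMSO, with SE (3 arrays a group), for each probe set of receptor genes with several probe sets. Diamonds mark the probe set used for the gene and circles its others, filled where the limma adjusted p is under 0.05, and filled symbols lie on both sides of 0 for KLHL7, KLHL20 and KLHL29.

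RefSeq promoter entries were found for 45 of the 54 members, in 61 rows, and each was searched over the 250 bases before the start on both strands. The TGACNNNGC letters stood in 10 of the 45 genes (22.2%) and in 11 of the 61 rows (18.0%), against 10.9% of 35116 promoters of the same length. Of the 10 genes KLHL15, KLHL18 and KLHL21 rose at 24 h, BTBD3 fell, and BTBD1, BTBD18, KLHL12, KLHL13, KLHL32 and KLHL40 were not called. The other motifs were rare: the E-box CACGTG stood in 3 genes (6.34% of all promoters), TGATGNAA, an element of C/EBP and ATF factors, in 1 (3.14%), and the cyclic AMP response element TGACGTCA in 1 (1.65%). The E2F forms TTTGGCGC and TTTCGCGC stood in 1 and 2 genes (0.55% and 0.439% of all promoters). A match is a description of the letters and not of binding.

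Some receptors share a promoter region with a neighbour on the other strand. In RefSeq 10 members have a start within 1000 bases of such a gene, 7 of them with a measured partner. KIF9 starts 145 bases from KLHL18 and rose by 0.28 ± 0.08 at 24 h (adjusted p = 0.00628), beside 1.29 for KLHL18. TOGARAM1 starts 705 bases from KLHL28 and rose by 0.46 ± 0.08 (adjusted p = 9.01e-05), beside 0.75 for KLHL28. AASDHPPT, 315 bases from KBTBD3, was not called (-0.11 ± 0.06, adjusted p = 0.186). NDUFAF4 and NDUFS3, factors of respiratory complex I, rose by 0.79 ± 0.07 and 0.39 ± 0.07 beside KLHL32 and KBTBD4, which were not called.

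The genes of the ligase that the receptors share were counted the same way. Of 14 measured genes of the cullin-3 core and the NEDD8 machinery, 5 rose and 1 fell at 8 h (42.9%, against 15.2% of all genes), and 5 rose and 5 fell at 24 h (71.4%, against 34.0%). Their median changes were 0.066 and 0.069, and the list was not tested against all genes. CUL3 itself rose by 0.32 ± 0.05 at 8 h (1699 against 1358.5) and by 0.20 ± 0.05 at 24 h (1428 against 1242, adjusted p = 0.00494). RBX1, its RING partner, fell by 0.64 ± 0.07 at 24 h. Of the enzymes of NEDD8 transfer, UBA3, a subunit of the enzyme MLN4924 inhibits, fell by 0.61 ± 0.15 and UBE2F, a NEDD8 E2 enzyme, by 1.16 ± 0.08 (347 against 815, adjusted p = 9.54e-12). UBA3 averaged 1298 with MLN4924 and 1984 with DMSO at 24 h, and 1448 and 1342.5 at 1 h. NAE1, the other subunit of the inhibited enzyme, was not called at 24 h (0.14 ± 0.05, adjusted p = 0.0556). DCUN1D2, DCUN1D3, DCUN1D4 and DCUN1D5, which help load NEDD8 on cullins, rose by 0.70, 0.56, 0.38 and 0.30.

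Of 25 other BTB adaptors measured, 4 rose and 4 fell at 8 h (8 of 25, against 15.2% of all genes), and 4 rose and 5 fell at 24 h (36.0%, near the 34.0% of all genes). KEAP1, the Kelch receptor of NRF2, rose by 0.47 ± 0.11 at 4 h and by 0.86 ± 0.11 at 8 h (449 against 235, adjusted p = 5.6e-06), and was 0.27 ± 0.11 at 24 h (adjusted p = 0.0677). ENC1, a Kelch protein of ectoderm and neural tissue, fell by 1.12 ± 0.11 at 8 h and by 1.03 ± 0.11 at 24 h (238 against 513). KCTD15, a regulator of neural crest formation, fell by 0.92 ± 0.10 at 24 h, and SPOPL, a relative of the adaptor SPOP, rose by 0.50 ± 0.09.

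Genes of the receptors' substrates and partners are given beside the receptors. Of 35 measured, 8 rose and 10 fell at 24 h (51.4%, against the 34.0% of all genes), and 4 rose and 2 fell at 8 h (17.1%, against 15.2%). AURKA, read at 528 against 1520 (-1.47 ± 0.06, adjusted p = 2.46e-16), fell while its receptor KLHL18 rose. AURKB fell by 0.77 ± 0.07, beside a fall of KLHL9 and a rise of KLHL21. PLK1 fell by 1.53 ± 0.11, beside a fall of KLHL22, while DEPDC5, a dim gene of another KLHL22 substrate, rose by 0.43 ± 0.15. DAPK1 rose by 1.53 ± 0.10, beside a fall of the main KLHL20 probe set, and the KLHL20 substrates PML (0 ± 0.10) and ULK1 (0.10 ± 0.20) were not called. PIK3R1 fell by 0.90 ± 0.12, and KATNA1 and SEC31A rose by 0.64 ± 0.09 and 0.47 ± 0.08. Their receptors KBTBD2, KLHL42 and KLHL12 were not called at 24 h on their main probe sets. TIAM1 fell by 1.50 ± 0.12 and GABARAP by 0.74 ± 0.07, beside the rise of KBTBD6 and the fall of KBTBD7. NOLC1 and TCOF1 rose by 0.85 ± 0.06 and 0.86 ± 0.16 together with KBTBD8. WNK4 and WNK1 fell by 0.60 ± 0.15 and 0.32 ± 0.08, as did KLHL2. These are RNA levels, while the ligase acts on the substrate proteins, which were not measured here.

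**Figure D5:**
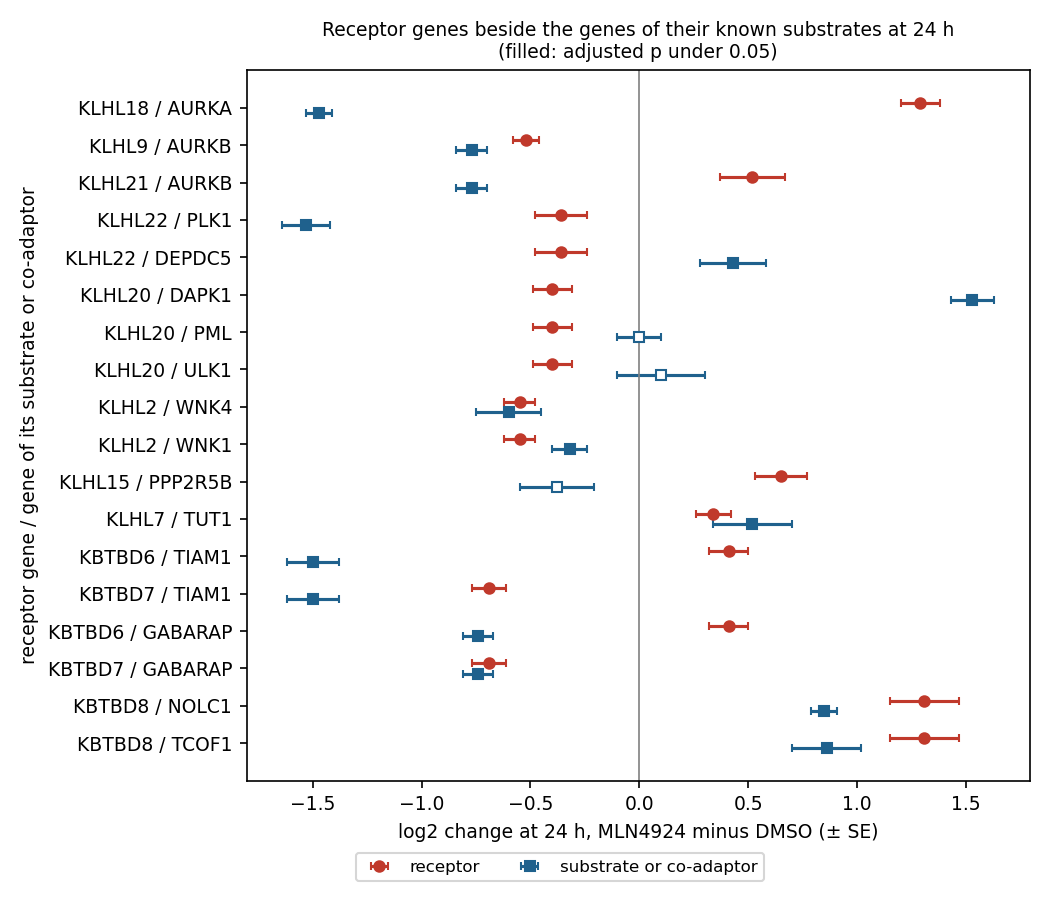
Log2 change at 24 h, MLN4924 minus DMSO, with SE (3 arrays a group), of a receptor gene (red circles) and of the gene of its known substrate or co-adaptor (blue squares), 1 pair a row. Filled symbols have a limma adjusted p under 0.05. KLHL18 and AURKA lie on opposite sides of 0, and KBTBD8 lies on the same side as NOLC1 and TCOF1.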

How the data were processed

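The deposited table holds 1 intensity per probe set and array, a linear signal made by the authors with Affymetrix Expression Console, per the submitters' processing notes. The program's version and its algorithm are not named in the labels. The mean after trimming was 150.02 on every array, so the authors' values were scaled to a common mean. Groups and times come from the sample titles.

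Signals were quantile-normalized and transformed as log2(signal + 32). Each gene was read from its brightest probe set on average, among those annotated to 1 symbol (41097 probe sets had 1 symbol, 1801 several and 11777 none). limma 3.58.1 in R 4.3.3 fitted the 10 group means to the 30 arrays together, with 20 residual degrees of freedom, eBayes and Benjamini-Hochberg adjustment over all 19775 genes per contrast, two-sided. The labels do not say whether replicate numbers pair arrays, and no pairing was used. Deviations from the group mean of same-numbered MLN4924 and DMSO arrays of a time correlated at -0.11 to 0.07 in 15 pairs, 0 of them over 0.1. Same-numbered arrays of different times were not compared, so these values do not settle whether arrays shared a culture or day. The 3 arrays per group limit the precision. On simulated data, 49 of 93 genes changed by 0.5 at 24 h were called (52.7%), as were 101 of 107 changed by 1 (94.4%). Of the 157 calls 7 were false. The simulation changed 200 of 19775 genes, while 34.0% of all genes were called at 24 h in the data. The adjusted threshold depends on the share of changed genes, so these rates need not hold for the data.

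Given with every array were all members called at 4 h, the 6 largest called changes each way at 8 h and the 10 largest at 24 h. Members of known role and the 3 members with the highest mean signal over the DMSO arrays (BTBD1, BTBD3 and KLHL11) were given as well. KLHL18 at 8 h, KLHL17, KLHL3, KLHL25 and KLHL36 were added after their values were seen. Members, lists and tests were chosen with earlier results of these data known. Alternatives were other scalings, an added 1 in place of 32, dim genes left out, the mean over probe sets, probe sets that match several transcripts left out, the 6 arrays alone, a replicate block, and each array left out. Promoters came from RefSeq (GRCh38.p14).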

Additional observations from a re-analysis of the deposited data

Results flagged for a closer look

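In 14 receptor genes the effect of MLN4924 at 24 h differed from the effect at 8 h by limma's test of the difference itself, adjusted over all genes, against 19.5% of all genes. The difference, 24 h effect minus 8 h effect, was positive for BTBD10 (1.48 ± 0.24, SE, adjusted p = 4.2e-05), KLHL18 (1.01 ± 0.13), KBTBD8 (0.88 ± 0.23), KLHL7 (0.55 ± 0.11), KLHL12 (0.50 ± 0.07) and BTBD19 (0.44 ± 0.13). It was negative for KLHL2 (-0.84 ± 0.10, adjusted p = 6.19e-07), KLHL5 (-0.78 ± 0.09), KLHL29 (-0.55 ± 0.13), KLHL31 (-0.55 ± 0.19), KBTBD7 (-0.49 ± 0.11), KLHL42 (-0.47 ± 0.10), BTBD3 (-0.38 ± 0.10) and KLHL8 (-0.36 ± 0.13, adjusted p = 0.049). KLHL2 and KLHL5 are the 2 members called higher at 8 h and lower at 24 h. The count was 11 to 15 when 1 array of either time was left out.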

How the results depend on the processing

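The calls of KLHL18 at 8 h and of KLHL11 and KLHL17 at 24 h were not tried under the alternatives. Of 35 other calls of MLN4924 against DMSO in single members, 19 were kept under all alternatives, 14 were lost under some, and 2 reversed. Averaged over their probe sets, KLHL7 at 24 h was -0.08 and KLHL20 at 24 h was 0.11. Their probe sets were called in both directions. Counts of called receptors moved by over 1.5 times in few cases. The mean of probe sets gave 1 call at 2 h (0 as reported) and 2 at 4 h (4 as reported). Without probe sets that can match several transcripts the 4 h count was 2, and with only the 6 arrays compared it was 1. With dim genes left out, the effect at 8 h minus that at 4 h gave 1 call (0 as reported). Leaving out 1 array gave 3 to 3 calls at 4 h, 11 to 13 at 8 h, 18 to 21 at 24 h, 20 to 24 in the F test, 11 to 15 for 24 h against 8 h, and 7 to 12 for DMSO 24 h against 1 h, with 7 without the first DMSO array of 1 h or of 24 h. The cause of these differences in count was not tested. Replicate numbers used as a block gave 5 calls at 4 h, 13 at 8 h and 21 at 24 h. The 3 arrays a group and the array background limit what dim receptors can show.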

Other observations

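Probe sets annotated to a receptor together with another gene were not part of the counts. There were 4. One annotated to KLHL23 and the read-through gene PHOSPHO2-KLHL23 averaged 295 with MLN4924 and 189 with DMSO at 8 h, a rise of 0.56 ± 0.15 (SE, limma adjusted p = 0.02 over all probe sets). At 24 h it averaged 149.9 and 175 (-0.19 ± 0.15, adjusted p = 0.466), while the KLHL23 probe set with 1 symbol rose by 0.52. One annotated to KBTBD4 and PTPMT1, a mitochondrial phosphatase, averaged 283 and 390.4 at 24 h, a fall of 0.42 ± 0.08 (adjusted p = 0.000333), while the KBTBD4 probe set was not called. The other 2 were at background, with means of 5.55 or less in every group at 8 and 24 h.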
